A study of Mus musculus with 30 samples.

Results

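The average effect of the FAD4T genotype on thyroid transcripts was measured over 24 of the 30 libraries of the study, 12 from FAD4T mice and 12 from wild-type (WT) mice. The libraries were chosen by their titles. They fill 4 strata of sex and age, each with 3 FAD4T and 3 WT libraries: males of 2 months, females of 2 months, males of 8 months and females of 8 months. All mice are labelled C57BL/6, and the sample is whole thyroid. The labels name the genotype FAD4T without saying which alleles, promoters or transgenes it stands for, and give no agent or treatment. A further set of 6 wild-type males, used by the study for ageing, was left out. Each group has 3 mice by the design, and litters or dates of dissection are not given, so a p-value reflects only how far these animals differ. Differences between the strata were removed by fitting stratum as a blocking factor, and the genotype term then asks which transcripts stand higher or lower in FAD4T thyroids of both sexes and both ages.

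The thyroid is built of follicles whose epithelial cells make thyroglobulin, the product of Tg, store it in the lumen and iodinate it with hydrogen peroxide from dual oxidases. Iodide enters through the sodium iodide symporter, and the hormone is released when thyroglobulin is taken up again and digested. Pituitary thyrotropin drives these steps through its receptor and cyclic AMP, and the gland is rich in capillaries and holds macrophages and parafollicular C cells. The thymus, parathyroid, trachea and neck muscle lie beside it and can be taken with it at dissection. In bulk samples, fewer cells of a type and less RNA per cell cannot be told apart.

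The libraries held 14083958 to 20256049 counts. Tg alone took 15.6 ± 7.08% of the counts in FAD4T libraries and 17.1 ± 5.07% in WT libraries (SD, n = 12 each). Levels are given as CPM, gene counts relative to the normalised library total, and changes as log2 fold changes of FAD4T over WT with their standard error (SE). All 11 markers of the follicular cell passed the filter on low counts, and their mean level, as log2(CPM + 1), was 7.87 to 9.35 in FAD4T libraries and 7.71 to 9.09 in WT libraries, so the labelled tissue was present in all 24. Of the variance over the genes tested, stratum held 31.9%, genotype 5.88%, the genotype-by-stratum part 10.2%, and the spread within groups 52.1%. In 5 libraries the mean level of 10 thymocyte markers exceeded 2, and all 5 were FAD4T: replicates 2 and 3 of the males of 2 months (5.15 and 3.25), replicates 1 and 2 of the females of 2 months (3.92 and 4.45) and replicate 1 of the males of 8 months (3.15). In the other 7 FAD4T libraries that level was 0.53 to 0.79, and in the 12 WT libraries it was 0.42 to 1.74. These 5 libraries stand apart before any comparison of genotypes, so many results below are also given from a fit without them, which keeps 1 FAD4T library of the males of 2 months, 1 of the females of 2 months and 2 of the males of 8 months. In that fit 5.85% of genes had an unadjusted p under 0.05 in either direction.

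Across the genome no single transcript separated the genotypes at the set threshold. Of 18493 genes tested with edgeR's quasi-likelihood test, 0 (0.0%) had an adjusted p under 0.05, and the smallest adjusted p was 0.181, shared by 137 genes. An unadjusted p under 0.05 was found for 2675 genes (14.5%), of which 1652 (8.93%) were higher and 1023 (5.53%) lower in FAD4T. With DESeq2 on the same design 237 genes (1.28%) had an adjusted p under 0.05, 199 (1.08%) of them higher and 38 (0.205%) lower, so the number of calls depended on the tool. Higher values were found for 9019 genes (48.8%) and lower values for 9474 (51.2%), and the median log2 fold change was -0.01. The median SE of a log2 fold change was 0.14, close to the median size of the changes themselves, 0.15. Of all genes, 1852 (10%) were higher in FAD4T in each of the 4 strata and 1604 (8.67%) lower in each, by group means. In 3 or more strata every FAD4T library exceeded every WT library for 30 genes (0.162%) and lay below for 21 (0.114%). No gene did so in all 4. For counts of pairs, or of libraries beyond the range of the other genotype, no share over all genes is given.

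Since no gene passed, the genes described first were taken by a fixed rule: at least 5 CPM in FAD4T or WT, the same direction in all 4 strata, and the smallest p, 12 in each direction of 2473 candidates. Their shared direction and low p come from the rule and are given as a description. The 12 higher genes include several that are known from leukocytes, macrophages and MHC class I presentation, and the 12 lower genes include 7 that work in mitochondrial oxidation, import or glycine breakdown. All 24 carry an adjusted p of 0.181 by edgeR and of 0.008 to 0.032 by DESeq2.

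**Figure D1:**
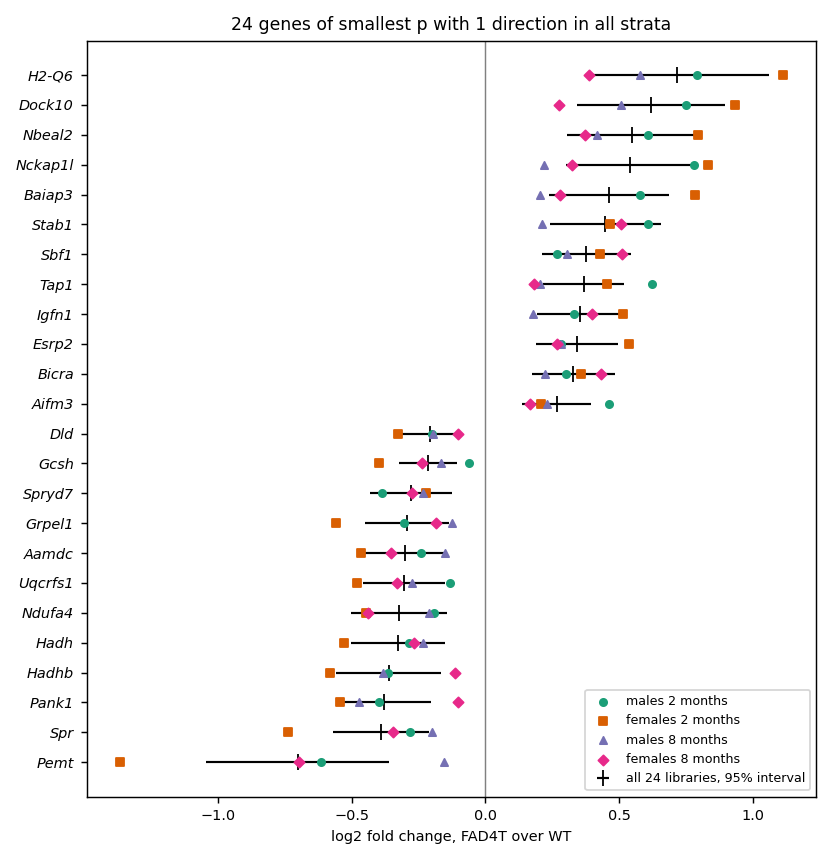
Log2 fold change of FAD4T over WT (x axis) for the 12 higher and 12 lower genes of the rule. Bars are the estimates from all 24 libraries with their 95% interval, and coloured points are the 4 strata of 6 libraries each; all points of a gene lie on one side of 0, as the rule requires, and the estimates run from -0.70 for Pemt to 0.72 for H2-Q6.

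Among the higher genes, Tap1 had the smallest p. Tap1 (ENSMUSG00000037321, GRCm38 chromosome 17, 34187553 to 34197225) encodes a subunit of the transporter that carries peptides into the endoplasmic reticulum for MHC class I. It lay at 24.03 CPM at the lowest, 37.8 at the median and 48.6 at the highest in FAD4T libraries, against 25.5, 28.3 and 34.2 CPM in WT libraries. In 3 of 4 strata, all but the males of 8 months, every FAD4T library exceeded every WT library. Of all genes, 0.162% did so in 3 or more strata. Over all strata 8 of 12 FAD4T libraries exceeded the highest WT library, while 1 lay below the lowest. The log2 fold change was 0.37 (SE 0.07), and the FAD4T library was the higher in 33 of 36 pairs of libraries within strata. By stratum it was 0.62 in males and 0.46 in females of 2 months, and 0.20 in males and 0.18 in females of 8 months. Without replicate 3 of the FAD4T males of 8 months, the lowest of the 24, Tap1 passed the threshold with a log2 fold change of 0.41 and an adjusted p of 0.0499, and it was the 1 gene that passed when any single library was left out.

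Psmb9 (ENSMUSG00000096727, chromosome 17, 34181988 to 34187764), a subunit of the immunoproteasome that makes the peptides Tap1 carries, starts beside Tap1 on the opposite strand. In the annotation the 2 genes overlap at their starts, and counts made without strand are uncertain there. The RefSeq start used for the Psmb9 promoter below lies inside the annotated gene. Psmb9 lay at 13.2, 17.0 and 32.3 CPM (lowest, median, highest) in FAD4T libraries and 9.75, 14.5 and 22.8 CPM in WT libraries, and the genotypes overlapped. Psmb9 had a log2 fold change of 0.41 (SE 0.15, unadjusted p = 0.0127) over all libraries and 0.04 without the 5 thymocyte-high libraries, where Tap1 kept 0.24. The difference between the 2 genes in this was not tested. Their promoters overlap almost wholly, and the sequences are shown because the genes share them. Both are taken from RefSeq on GRCm38.p6, 5′ to 3′ on each gene's own strand, from 250 bases before to 50 bases after the start; capitals mark CCAAT or its reverse complement ATTGG, the core that the factor NF-Y binds in MHC promoters.
Tap1 promoter, chr17:34187306-34187605, plus strand: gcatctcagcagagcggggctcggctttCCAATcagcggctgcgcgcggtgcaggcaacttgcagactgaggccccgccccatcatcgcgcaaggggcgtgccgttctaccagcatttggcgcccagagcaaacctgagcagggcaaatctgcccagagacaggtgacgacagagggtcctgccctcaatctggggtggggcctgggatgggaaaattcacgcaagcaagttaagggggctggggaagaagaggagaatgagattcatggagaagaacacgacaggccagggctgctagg
Psmb9 promoter, chr17:34187281-34187580, minus strand: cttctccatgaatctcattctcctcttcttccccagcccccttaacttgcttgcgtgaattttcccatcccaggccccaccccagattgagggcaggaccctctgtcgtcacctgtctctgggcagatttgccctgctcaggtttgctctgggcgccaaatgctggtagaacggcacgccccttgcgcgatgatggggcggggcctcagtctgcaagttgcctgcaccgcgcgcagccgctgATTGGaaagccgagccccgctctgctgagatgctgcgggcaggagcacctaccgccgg

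H2-Q6 (ENSMUSG00000073409, chromosome 17, 35424850 to 35430055) encodes a non-classical MHC class I chain of the Qa-2 family and had the largest change of the 12 higher genes. It lay at 21.6, 38.4 and 67.7 CPM in FAD4T libraries and 15.2, 27.3 and 41.4 CPM in WT libraries. The highest library was replicate 1 of the FAD4T females of 2 months, 5 of 12 FAD4T libraries exceeded all WT libraries, and the ranges overlapped. The log2 fold change was 0.72 (SE 0.17), and it was 0.25 without the 5 thymocyte-high libraries. Near-identical H2-Q genes lie beside it, so its reads may be shared and the value is uncertain. Its promoter is shown because it holds the same 5 letters in both orientations, 79 and 55 bases before the start.
H2-Q6 promoter, chr17:35424600-35424899, plus strand: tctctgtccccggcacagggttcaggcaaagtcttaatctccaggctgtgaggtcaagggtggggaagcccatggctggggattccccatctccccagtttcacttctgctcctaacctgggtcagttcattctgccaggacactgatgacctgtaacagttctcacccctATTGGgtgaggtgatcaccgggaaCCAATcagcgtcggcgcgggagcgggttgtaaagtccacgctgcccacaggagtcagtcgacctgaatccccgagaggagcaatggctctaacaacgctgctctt
CCAAT was searched on both strands in the 300-base promoters of 17138 genes, of which 38.3% held it. It stood in 8 of the 10 promoters found for the antigen processing and MHC list and in 4 of the 9 found for the 12 higher genes. The interferon response letters GAAANNGAAA stood in 3.21% of all promoters, in 10 of 17 promoters of interferon-stimulated genes, in 1 of 10 of the antigen processing list and in 0 of 9 of the higher genes. A match is a description of these windows only.

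The antigen processing and MHC list was higher as a group, by an amount that depended on few libraries. Of its 17 members, 15 were higher in FAD4T and 9 had an unadjusted p under 0.05, where 8.93% of all genes were higher at that level. The median log2 fold change was 0.22, against -0.01 over all genes. Without the 5 thymocyte-high libraries, the median was 0.05, with 13 of 17 higher and 2 at an unadjusted p under 0.05. Ciita, the master regulator of MHC class II genes, lay at 3.35, 5.29 and 8.73 CPM in FAD4T libraries and 1.57, 3.57 and 4.84 CPM in WT libraries. In 7 of 12 FAD4T libraries it exceeded the highest WT library, and the FAD4T library was the higher in 35 of 36 pairs within strata. Its log2 fold change was 0.54 (SE 0.16), and it was 0.52 without the thymocyte-high libraries and 0.35 (unadjusted p = 0.143) with the levels of thymocytes, skeletal muscle and adipocytes as covariates. In that last fit the median of the list was 0.03, with 13 of 17 higher and 1 of 17 at an unadjusted p under 0.05. Of all genes 1.98% had such a p in that fit.

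Macrophage genes were slightly higher in FAD4T thyroids, mostly at 2 months. Of 11 macrophage markers 10 were higher, 6 of them in all 4 strata and 6 with an unadjusted p under 0.05, where 10% and 8.93% of all genes were higher by these measures, and the median log2 fold change was 0.20. Without the 5 thymocyte-high libraries, all 11 were higher, the median was 0.22 and 2 had an unadjusted p under 0.05, as did 5.85% of all genes in that fit. Their mean level as log2(CPM + 1) was 4.06 to 4.47 in FAD4T libraries and 3.75 to 4.33 in WT libraries, and the ranges overlapped. By stratum their median log2 fold change was 0.36 in males and 0.27 in females of 2 months, and 0.09 in males and 0.08 in females of 8 months. With the levels of thymocytes, skeletal muscle and adipocytes as covariates all 11 were higher, with a median of 0.17. In that fit 1 of 11 had an unadjusted p under 0.05, as did 1.98% of all genes. Mrc1, the mannose receptor of resident macrophages, lay at 10.9, 17.1 and 22.5 CPM in FAD4T libraries, against 7.37, 14.4 and 18.3 CPM in WT libraries. In 3 of 4 strata every FAD4T library exceeded every WT library, as in 3 or more strata for 0.162% of all genes. Mrc1 had a log2 fold change of 0.33 (SE 0.09, unadjusted p = 8.1e-04).

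Stab1 (ENSMUSG00000042286, chromosome 14, 31139013 to 31168641), a scavenger receptor of macrophages and sinusoidal endothelium, was among the 12 higher genes by the rule. It lay at 32.6, 44.4 and 81.4 CPM in FAD4T libraries and 22.5, 34.0 and 50.4 CPM in WT libraries, with a log2 fold change of 0.45 (SE 0.10). The 2-month libraries were higher than the 8-month libraries in both genotypes, so the ranges overlapped while 34 of 36 pairs within strata were higher in FAD4T. Cd163, the haemoglobin scavenger receptor of macrophages, had a log2 fold change of 0.32 (SE 0.12), and Aif1, an actin-binding protein of activated macrophages, of 0.46 (SE 0.15); without the 5 libraries these were 0.21 and 0.25. C1qa, a chain of the first complement component made largely by macrophages, had 0.20 (SE 0.09). For the complement list as a whole, 12 of 15 members were higher, the median was 0.12, and 3 higher and 1 lower had an unadjusted p under 0.05.

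Other genes among the 12 act in blood cells. Nckap1l, the WAVE actin-regulator subunit of blood cells, averaged 17.3 ± 4.03 CPM in FAD4T libraries and 11.8 ± 1.67 CPM in WT libraries (SD, n = 12 each), a log2 fold change of 0.54 (SE 0.11). Dock10, a guanine nucleotide exchange factor found in lymphocytes, averaged 14.3 ± 6.24 CPM in FAD4T libraries and 9.04 ± 2.24 CPM in WT libraries, a log2 fold change of 0.62 (SE 0.13). Nbeal2, needed for platelet alpha granules, averaged 46.7 ± 13.9 CPM in FAD4T libraries and 31.5 ± 5.10 CPM in WT libraries, a log2 fold change of 0.55 (SE 0.12). Without the 5 thymocyte-high libraries these values were 0.32 for Nckap1l, 0.27 for Dock10 and 0.26 for Nbeal2. The part of thymocyte content in them was not tested beyond this.

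The remaining higher genes have broader roles. Sbf1 (ENSMUSG00000036529, chromosome 15, 89288236 to 89315311), a myotubularin-family pseudophosphatase, lay at 172, 215 and 274 CPM in FAD4T libraries and 122, 168 and 209 CPM in WT libraries. In 3 of 4 strata every FAD4T library exceeded every WT library, as in 3 or more strata for 0.162% of all genes. The log2 fold change was 0.38 (SE 0.08) and 0.30 without the 5 libraries. Igfn1, an immunoglobulin and fibronectin domain protein known from skeletal muscle, exceeded the highest WT library in 10 of 12 FAD4T libraries. It lay at 317, 407 and 484 CPM in FAD4T libraries and 247, 319 and 367 CPM in WT libraries, a log2 fold change of 0.36 (SE 0.08) and 0.32 without the 5 libraries. Esrp2, an epithelial splicing factor, had 0.34 (SE 0.08), and Bicra, a subunit of a SWI/SNF chromatin remodeller, had 0.33 (SE 0.08). Aifm3, related to apoptosis-inducing factor, had 0.27 (SE 0.06), and Baiap3, a Munc13-family protein of vesicle release, had 0.46 (SE 0.11). In 7 of the 12 higher genes the lowest of the 24 libraries was replicate 2 of the WT females of 8 months. All 12 were higher without the 5 thymocyte-high libraries, at 0.24 to 0.32. With the levels of thymocytes, skeletal muscle and adipocytes as covariates they were higher at 0.17 to 0.31. The rule that chose them largely fixes this direction. With the covariates 5 of the 12 had an unadjusted p under 0.05.

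**Figure D2:**
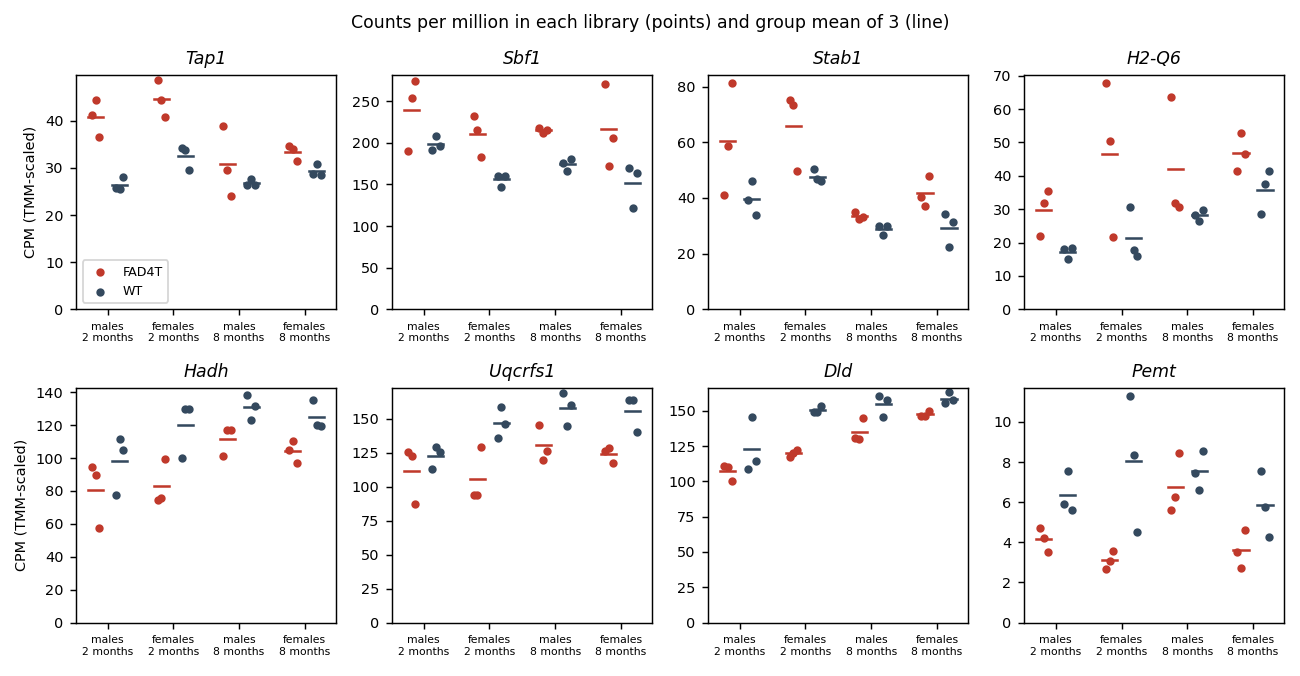
CPM in each library (points) for 4 of the higher and 4 of the lower genes, by stratum, with FAD4T left of WT and a line at each mean of 3. Within strata the genotypes are shifted, while over all strata their ranges overlap, as for Stab1 at 32.6 to 81.4 CPM in FAD4T and 22.5 to 50.4 CPM in WT.

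Several of the lower genes work in mitochondrial fuel use. Hadh (ENSMUSG00000027984, chromosome 3, 131233419 to 131272101), a dehydrogenase of fatty acid oxidation, lay at 57.2, 98.1 and 117 CPM in FAD4T libraries and 77.5, 122 and 139 CPM in WT libraries. In 3 of 4 strata every FAD4T library lay below every WT library, although 9 of 12 FAD4T libraries stood above the lowest WT library. Of all genes, 0.114% lay below in this way in 3 or more strata. The log2 fold change was -0.33 (SE 0.09), and -0.20 without the thymocyte-high libraries. Hadhb, the beta subunit of the trifunctional protein of the same pathway, averaged 150 ± 34.2 CPM in FAD4T libraries and 191 ± 38.7 CPM in WT libraries, a log2 fold change of -0.36 (SE 0.10). Pank1, which starts coenzyme A synthesis, averaged 17.2 ± 2.73 CPM in FAD4T libraries and 22.2 ± 3.16 CPM in WT libraries, a log2 fold change of -0.38 (SE 0.08).

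Dld (ENSMUSG00000020664, chromosome 12, 31331277 to 31351453) encodes the dihydrolipoamide dehydrogenase shared by pyruvate dehydrogenase, its 2-oxo acid relatives and the glycine cleavage system. It lay at 100.5, 126 and 149.8 CPM in FAD4T libraries and 109, 151 and 163 CPM in WT libraries. In 3 of 4 strata all FAD4T libraries lay below all WT libraries, as in 3 or more strata for 0.114% of all genes. The log2 fold change was -0.21 (SE 0.05). Gcsh, the hydrogen carrier of the glycine cleavage system, averaged 34.2 ± 2.68 CPM in FAD4T libraries and 39.7 ± 2.57 CPM in WT libraries and also had a log2 fold change of -0.21 (SE 0.05). Grpel1, the exchange factor of the chaperone that pulls proteins into mitochondria, had -0.29 (SE 0.08).

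The promoter of Dld is shown as the 1 of 11 promoters found for the lower genes to hold the letters GCGCANGCGC, to which the factor NRF1 binds in genes of mitochondrial proteins. Capitals mark the match, which begins 39 bases after the start. Both strands of each promoter were searched, and in the promoters shown no match of one motif overlaps a match of another.
Dld promoter, chr12:31351422-31351721, minus strand: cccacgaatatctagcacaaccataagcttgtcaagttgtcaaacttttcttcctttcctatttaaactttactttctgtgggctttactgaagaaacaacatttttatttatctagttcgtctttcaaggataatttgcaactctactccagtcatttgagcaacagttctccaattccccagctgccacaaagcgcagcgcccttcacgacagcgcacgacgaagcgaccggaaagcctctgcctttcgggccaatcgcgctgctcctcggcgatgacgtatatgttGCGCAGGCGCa
Of all 17138 promoters 6.72% held these letters, and of the 11742 promoters of genes tested 9.33%, so 1 of 11 is near the background. They stood in 3 of 15 promoters found for the oxidative phosphorylation list.

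The respiratory chain genes were lower throughout their list. All 22 members of the oxidative phosphorylation list were lower in FAD4T, 16 with an unadjusted p under 0.05 where 5.53% of all genes were lower at that level, and 14 in all 4 strata where 8.67% of all genes were. The median log2 fold change was -0.23, with single members from -0.41 to -0.09, and 0 of 22 passed the adjusted threshold by edgeR. DESeq2 called 2 of them lower, Uqcrfs1 and Ndufa4, and 0.205% of all genes lower. It also called 2 members of the cholesterol and fatty acid synthesis list lower. Members it called higher, with 1.08% of all genes, included 5 of the thymocyte, 5 of the T and NK cell, 4 of the cell cycle, 2 of the antigen processing and 1 of the macrophage list. Uqcrfs1 (ENSMUSG00000038462, chromosome 13, 30540308 to 30545362), the Rieske iron-sulfur subunit of complex III, lay at 87.1, 124 and 145.6 CPM in FAD4T libraries and 113, 145.8 and 169 CPM in WT libraries. Its 3 lowest libraries were FAD4T libraries of 2 months with high thymocyte levels, and the log2 fold change was -0.30 (SE 0.07) over all libraries and -0.25 without all 5 thymocyte-high libraries. Ndufa4, a subunit of complex IV, had -0.32 (SE 0.09), and Ndufb9, an accessory subunit of complex I, had -0.29 (SE 0.09).

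The level of the list is given here beside that of other tissues. As mean log2(CPM + 1), it was 6.97, 7.35 and 7.67 (lowest, median, highest) in FAD4T libraries and 7.25, 7.57 and 7.77 in WT libraries. Without the 5 thymocyte-high libraries all 22 members were still lower, with a median of -0.20 and 13 at an unadjusted p under 0.05, while the skeletal muscle median in that fit was -3.53, against -1.75 with all libraries. In females of 8 months, where the median of the list was -0.27, the level of skeletal muscle markers, a tissue rich in mitochondria, was 1.18 to 1.81 in FAD4T libraries and 4.69 to 7.52 in WT libraries. In the other strata the list median was -0.09 in males and -0.41 in females of 2 months, and -0.12 in males of 8 months. Without the females of 8 months 21 of 22 were lower, with a median of -0.22. In that fit 12 had an unadjusted p under 0.05, as did 2932 of all genes. Without the females of 2 months all 22 were lower, with a median of -0.17. There 8 of 22 had an unadjusted p under 0.05, as did 1314 of all genes. With the levels of thymocytes, skeletal muscle and adipocytes as covariates all 22 were lower, with a median of -0.11, and 0 of 22 had an unadjusted p under 0.05. Of all genes 1.98% had such a p in that fit, so 0 of 22 is near the background. Counts from the mitochondrial genome, which carries further subunits of the chain, took 4.001 ± 1.498% of counts in FAD4T libraries and 3.401 ± 1.004% in WT libraries (SD, n = 12 each). The difference of 0.60 percentage points was not beyond the spread (exact permutation test within strata over 160000 arrangements, two-sided p = 0.274), and its direction was opposite to that of the nuclear genes. The difference was -0.504 percentage points without the 5 thymocyte-high libraries, in the direction of the nuclear genes.

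Ppargc1a, the coactivator that drives mitochondrial gene expression, lay at 33.8, 38.1 and 55.9 CPM in FAD4T libraries and 34.0, 50.5 and 64.5 CPM in WT libraries. The ranges overlapped almost wholly, and the log2 fold change was -0.29 (SE 0.10, unadjusted p = 0.00833). Prdx3, the mitochondrial peroxiredoxin, had -0.37 (SE 0.12) and -0.16 without the 5 libraries, and Hspd1, the mitochondrial chaperonin, had -0.33 (SE 0.13) and -0.08 without the 5 libraries.

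Among the other lower genes, Pemt (ENSMUSG00000000301, chromosome 11, 59970614 to 60046489), which methylates phosphatidylethanolamine to phosphatidylcholine, had the largest change of the 12. It lay at 2.68, 3.897 and 8.46 CPM in FAD4T libraries and 4.28, 7.04 and 11.3 CPM in WT libraries. In 7 of 12 FAD4T libraries it lay below all WT libraries, and the FAD4T libraries of the males of 8 months were the highest of their genotype. The log2 fold change was -0.70 (SE 0.16), and -0.52 without the thymocyte-high libraries. Spr, the last enzyme of tetrahydrobiopterin synthesis, averaged 16.6 ± 2.69 CPM in FAD4T libraries and 21.8 ± 2.84 CPM in WT libraries, and 9 of 12 FAD4T libraries lay below all WT libraries, with a log2 fold change of -0.39 (SE 0.09). Aamdc had -0.30 (SE 0.07) and Spryd7 had -0.28 (SE 0.07). The lowest of the 24 libraries was a thymocyte-high FAD4T library of 2 months in all 12 lower genes, replicate 3 of the males in 6 of them. All 12 were lower without the 5 libraries, at -0.52 to -0.17, and with the 3 tissue levels as covariates, at -0.36 to -0.12. The rule that chose them largely fixes this direction. With the covariates 3 of the 12 had an unadjusted p under 0.05.

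Genes of protein synthesis and folding were also mostly lower. Of 22 cytosolic ribosomal protein genes 20 were lower, 13 in all 4 strata and 9 with an unadjusted p under 0.05, where 8.67% and 5.53% of all genes were lower by these measures, with a median log2 fold change of -0.19. Rpl8, of the large subunit, had -0.28 (SE 0.12) and -0.09 without the 5 thymocyte-high libraries. Without the 5 thymocyte-high libraries 20 of 22 were lower, the median was -0.11, and 0 had an unadjusted p under 0.05. Of 20 genes of endoplasmic reticulum chaperones and the unfolded protein response 18 were lower, 3 at an unadjusted p under 0.05 (5.53% of all genes), with a median of -0.28 and of -0.10 without the 5 libraries. Xbp1, a transcription factor of that response, lay at 249, 366 and 439 CPM in FAD4T libraries and 250.1, 406 and 535 CPM in WT libraries, with the ranges overlapping and a log2 fold change of -0.25 (SE 0.10).

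Other lists were read against the same 5.53% of all genes. Of 20 antioxidant genes 19 were lower, 3 at an unadjusted p under 0.05, with a median of -0.14, and of -0.08 with 0 at that level without the 5 libraries. Gpx1, a glutathione peroxidase, had -0.36 (SE 0.15) and -0.08 without the 5 libraries. Of 14 heat shock genes 13 were lower, 3 at an unadjusted p under 0.05, with a median of -0.17, and of -0.08 without the 5 libraries. Of 22 genes of cholesterol and fatty acid synthesis 17 were lower, 3 at an unadjusted p under 0.05, with a median of -0.14. The direction of this list depended on the fit: the median was -0.06 without the 5 libraries, 0.02 by voom with 12 of 22 higher, and 0.07 with the 3 tissue levels as covariates with 15 of 22 higher. Insig1, a sterol sensor of that pathway, lay at 43.2, 61.0 and 84.5 CPM in FAD4T libraries and 56.7, 77.1 and 97.0 CPM in WT libraries, and 5 FAD4T libraries lay below all WT libraries. Its log2 fold change was -0.35 (SE 0.10), and that of Fdft1, squalene synthase, was -0.23 (SE 0.06).

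**Figure D3:**
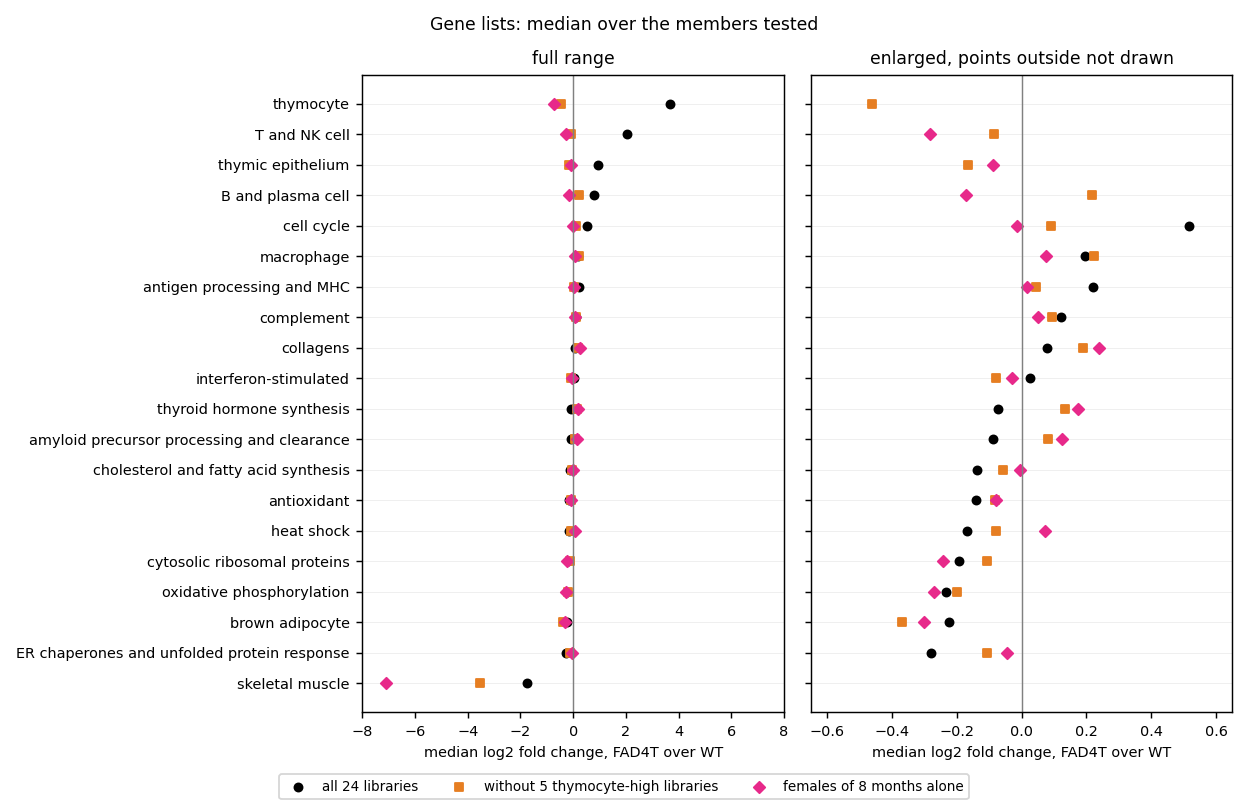
Median log2 fold change of FAD4T over WT over the tested members of 20 gene lists (rows), on the full range (left) and enlarged (right). Black circles are all 24 libraries, orange squares leave out the 5 thymocyte-high FAD4T libraries and pink diamonds are the females of 8 months alone; oxidative phosphorylation is at -0.23 with the 5 libraries and -0.20 without them, and antigen processing at 0.22 and 0.05. The thymocyte points without the 5 libraries follow from how those libraries were set apart.

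The genes that make a thyroid follicle did not separate the genotypes. Tg (ENSMUSG00000053469, chromosome 15, 66670753 to 66850721) had a log2 fold change of -0.28 (SE 0.28), with a 95% interval of -0.86 to 0.30. Its share of counts was 4.64%, 16.9% and 27.0% (lowest, median, highest) in FAD4T libraries and 5.58%, 18.9% and 22.3% in WT libraries. FAD4T libraries held both ends of that range, the highest in a female of 8 months and the lowest in a thymocyte-high female of 2 months. The difference of -1.53 percentage points was within the spread (exact permutation test within strata, two-sided p = 0.498), and without the 5 thymocyte-high libraries it was 2.12 points. By stratum it was -6.96 points in males of 2 months, -3.77 in females of 2 months, -1.77 in males of 8 months and 6.37 in females of 8 months.

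Slc5a5, the iodide symporter, lay at 75.9, 263 and 605 CPM in FAD4T libraries and 50.0, 246 and 444 CPM in WT libraries, with a log2 fold change of 0.32 (SE 0.28). Tshr, the thyrotropin receptor, had -0.12 (SE 0.20), Duox2, a dual oxidase, 0.19 (SE 0.11), and Dio1, a deiodinase, -0.16 (SE 0.17). Without the 5 thymocyte-high libraries the values were 0.51 for Slc5a5, 0.0076 for Tshr, 0.31 for Duox2 and 0.12 for Dio1. Of the 11 follicular cell markers 6 were higher over all libraries, with a median of 0.03. Without the 5 libraries all 11 were higher, with a median of 0.17. The 95% intervals of the log2 fold change reach -0.27 to 0.90 for Slc5a5 and -0.52 to 0.28 for Tshr, so changes of that size cannot be told from none at this spread.

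Pax8, a transcription factor that switches on Tg and Slc5a5, was the thyroid gene with the smallest p. It lay at 347, 535 and 668 CPM in FAD4T libraries and 326, 414 and 600.4 CPM in WT libraries, with 3 FAD4T libraries above all WT libraries. The log2 fold change was 0.27 (SE 0.10, adjusted p = 0.241), higher in all 4 strata, and 0.15 without the thymocyte-high libraries. Its partners Nkx2-1 and Foxe1 had 0.19 (SE 0.10) and -0.10 (SE 0.20), and Foxe1 was 0.22 without those libraries. Of the 14 genes of hormone synthesis 4 were higher and 10 lower, the median was -0.07, and 1 gene reached an unadjusted p under 0.05; without the 5 libraries 12 were higher, with a median of 0.13. Among 14 genes of thyrotropin receptor and cyclic AMP signalling, 4 were higher and 10 lower, and Adcy6, an adenylyl cyclase, had 0.26 (SE 0.08) and 0.17 without the 5. Of 10 genes of thyroglobulin breakdown 3 were higher and 7 lower, with a median of -0.16 and 0 at an unadjusted p under 0.05, and a median of 0.03 without the 5 libraries. Deiodinases, hormone carriers and hormone receptors gave 4 higher and 6 lower of 10 tested, with a median of -0.17, and of 0.001 without the 5.

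**Figure D4:**
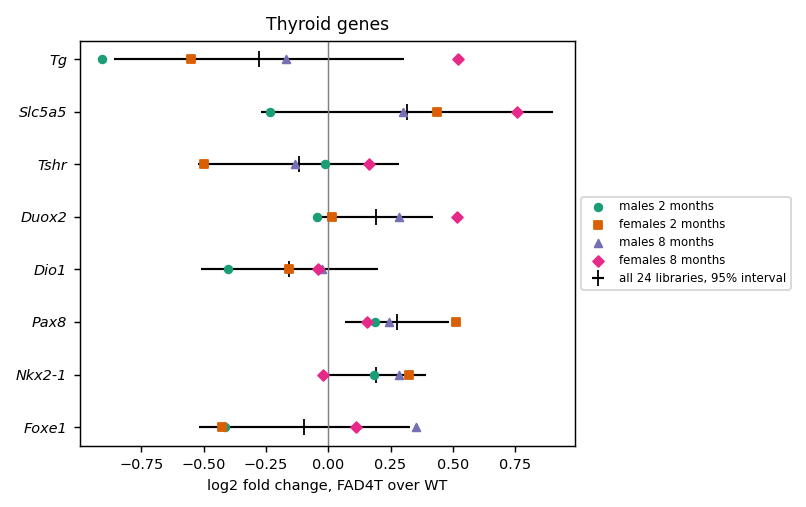
Log2 fold change of FAD4T over WT (x axis) of 8 thyroid genes, as the estimate from all 24 libraries with its 95% interval (bars) and by stratum (coloured points). The strata of Tg spread from -0.91 in males of 2 months to 0.52 in females of 8 months, and the 4 points of Pax8 lie at 0.16 to 0.51.

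FAD is a common abbreviation of familial Alzheimer's disease, but the labels do not spell it out, and mouse counts show a foreign transcript only where it matches a mouse gene. App (chromosome 16, 84954440 to 85173707), which encodes the amyloid precursor protein, lay at 533, 999.7 and 1297 CPM in FAD4T libraries and 479, 1013 and 1113 CPM in WT libraries. The ranges covered each other, with a log2 fold change of -0.06 (SE 0.13) and a 95% interval of -0.33 to 0.22.

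Thy1, a T cell and neuronal surface gene whose promoter is used in mouse transgenes, lay at 19.4, 29.8 and 140 CPM in FAD4T libraries and 16.4, 23.3 and 35.5 CPM in WT libraries. The 5 libraries above all WT libraries were the 5 with high thymocyte levels, and the log2 fold change was 0.97 (SE 0.29) with them and 0.07 without them. Of 21 genes of amyloid precursor processing and clearance 4 were higher and 17 lower, 0 at an unadjusted p under 0.05, with a median of -0.09, and of 0.08 without the 5 libraries. Of 14 tested genes that macrophages switch on around plaques in mouse brain, 7 were higher and 7 lower, with a median of 0.02. Itgax, an integrin of dendritic cells and activated macrophages, had the smallest p among them, with 0.40 (SE 0.11), 0.28 without the 5 libraries and 0.10 (unadjusted p = 0.497) with the 3 tissue levels as covariates.

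Lymphoid and dividing-cell transcripts had large values in the 5 thymocyte-high libraries. All 10 thymocyte markers were higher in FAD4T, each with an unadjusted p under 0.05, where 8.93% of all genes were higher at that level. Their median log2 fold change was 3.66. Cd4, the helper T cell coreceptor, lay at 0.49, 1.21 and 32.0 CPM in FAD4T libraries and 0.20, 0.60 and 2.21 CPM in WT libraries, and the 5 highest libraries were the 5 with high thymocyte levels. That gave Cd4 a log2 fold change of 2.95 (SE 0.75), and 0.30 without them. Cd8b1, a chain of the CD8 coreceptor, had 3.68 (SE 1.04) and -0.25 without them. Trac, the T cell receptor alpha constant region, had 1.89 (SE 0.50) and 0.20 without them. The 5 libraries were set apart by these same markers, so the smaller values of the thymocyte markers without them follow from that choice. All 10 markers of T and NK cells were higher as well, 9 at an unadjusted p under 0.05 (8.93% of all genes), with a median of 2.05. By stratum the thymocyte median was 6.07 in males and 4.03 in females of 2 months, 3.91 in males and -0.74 in females of 8 months.

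Of 23 cell cycle genes 20 were higher and 13 of these had an unadjusted p under 0.05, where 8.93% of all genes were higher at that level, with a median of 0.52, and of 0.09 without the 5 libraries. Mki67, a marker of dividing cells, lay at 2.83, 5.26 and 58.2 CPM in FAD4T libraries and 1.295, 3.09 and 4.61 CPM in WT libraries, and 8 FAD4T libraries exceeded all WT libraries. Its log2 fold change was 1.901 (SE 0.52), and 0.42 without the 5. Of 8 thymic epithelium markers 6 were higher, 5 at an unadjusted p under 0.05, with a median of 0.94, and of -0.16 without the 5. Among B and plasma cell markers 7 of 8 were higher, with a median of 0.80 and of 0.22 without the 5. Igkc, the kappa light chain constant region, lay at 0.98, 14.3 and 56.7 CPM in FAD4T libraries and 0.30, 1.67 and 28.7 CPM in WT libraries, with a log2 fold change of 2.67 (SE 0.68), 1.68 without the 5 (unadjusted p = 0.034) and 2.597 with the 3 tissue levels as covariates (unadjusted p = 0.0067).

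**Figure D5:**
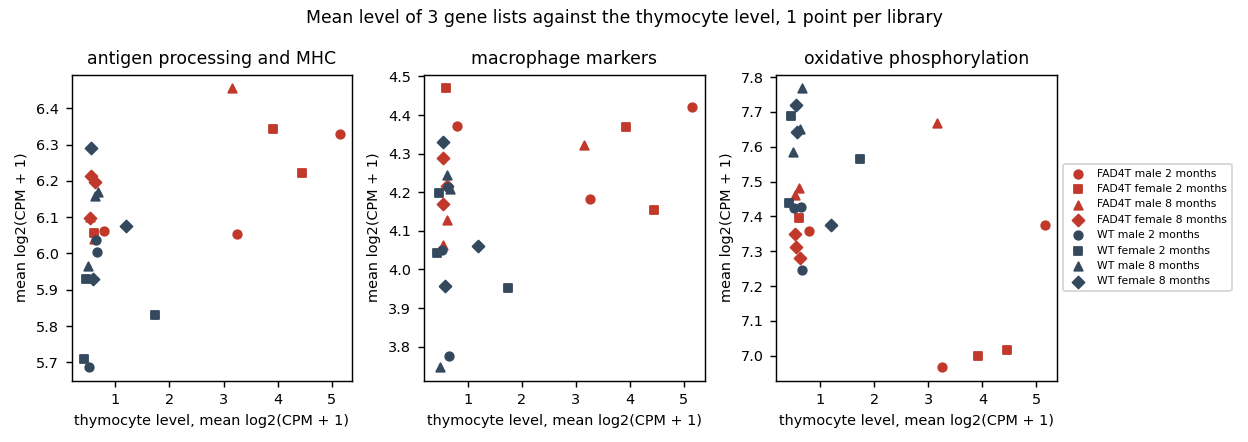
Mean level of antigen processing and MHC genes (left), macrophage markers (middle) and oxidative phosphorylation genes (right), each as mean log2(CPM + 1), against the thymocyte level of the same library. Red points are FAD4T and blue points WT, with shapes for the strata; the 5 FAD4T libraries with thymocyte levels of 3.15 to 5.15 stand to the right in every panel, and 3 of them have the lowest oxidative phosphorylation levels, 6.97 to 7.02.

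Markers of neighbouring and distant tissues varied as well. All 15 tested skeletal muscle markers were lower in FAD4T, with a median of -1.75 and 1 at an unadjusted p under 0.05. In the fit without the 5 thymocyte-high libraries all 15 were lower with an unadjusted p under 0.05, and the median was -3.53. That median was -7.09 in females of 8 months and 0.80 in males of 8 months. All 7 tested kidney markers were lower, 4 at an unadjusted p under 0.05, and their level in females of 8 months was 0.02 to 0.06 in FAD4T libraries and 0.95 to 1.33 in WT libraries. Of 8 brown adipocyte markers 7 were lower, with a median of -0.22. Liver markers had a median of -0.99, heart markers -0.68 and parathyroid markers -0.21. Adipocyte markers had 0.05 (-0.14 without the 5 libraries), red blood cell markers -0.03, lung markers 0.32 and airway epithelium markers 0.34. Among the markers from liver to airway epithelium, 2 of heart had an unadjusted p under 0.05. The liver level was 7.01 in replicate 1 of the WT females of 2 months, against 1.10 and 1.34 in replicates 2 and 3. It was 0.89 to 1.94 over all other libraries of 2 months and 3.94 to 5.15 in the libraries of 8 months, in both genotypes. Without the females of 2 months the liver median was 0.06, with 5 of 10 markers higher. That replicate 1 was also the lowest of the 24 libraries for App, Slc5a5, Tshr, Duox2, Dio1 and Ciita. Endothelial markers had a median of 0.11, fibroblast and matrix markers 0.04, C cell markers -0.22 (0.08 without the 5 libraries) and Schwann cell markers -0.16 (-0.07 without them), with 2 of 10 endothelial markers and 0 of the others at an unadjusted p under 0.05. The part of tissue content in the genotype effect was not tested beyond the fits with tissue levels as covariates, in which 0 genes had an adjusted p under 0.05 and 367 (1.98%) an unadjusted p under 0.05. Without the 5 thymocyte-high libraries these numbers were 0 and 1133 of 19362 (5.85%).

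The remaining lists had medians between -0.21 and 0.09. Of 25 interferon-stimulated genes 14 were higher and 11 lower, with a median of 0.03 and of -0.08 without the 5 libraries, and Stat2, a transducer of interferon signals, had 0.30 (SE 0.12) and 0.03 without the 5 libraries. Of 17 tested chemokine and inflammation genes 12 were higher, with a median of 0.09, and Vcam1, a leukocyte adhesion molecule of endothelium, had 0.36 (SE 0.13) and 0.15 without the 5. The list median was -0.01 without the 5. Of 17 clock genes 9 were higher and 8 lower, with a median of 0.07 and of -0.16 without the 5, and Per2, a clock repressor, lay at 46.8, 70.4 and 283 CPM in FAD4T libraries and 36.03, 56.01 and 108 CPM in WT libraries, with 0.54 (SE 0.22) and 0.07 without the 5. Bmp2, a bone morphogenetic protein, lay at 4.53, 8.78 and 15.7 CPM in FAD4T libraries and 4.16, 6.403 and 9.03 CPM in WT libraries. Its log2 fold change was 0.44 (SE 0.14) and 0.62 without the 5 (unadjusted p = 3.99e-04), with 1.08 in males and 0.55 in females of 8 months and -0.07 in females of 2 months. Nr4a2, an orphan nuclear receptor of the immediate early class, had 0.30 (SE 0.09). Medians were 0.08 for 15 collagens, 0.09 for 14 angiogenesis genes, 0.06 for 13 genes of the IGF axis, -0.04 for 19 of BMP and TGF-beta signalling (0.05 without the 5), -0.21 for 16 of autophagy and lysosomes (0.03 without the 5) and 0.04 for 14 of senescence and p53.

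An average effect describes the strata unevenly. In tests of whether the FAD4T effect differed among the 4 strata, 0 genes (0.0%) passed by edgeR, with a smallest adjusted p of 0.358 and 1121 genes (6.06%) at an unadjusted p under 0.05. That last count was 3048 without replicate 3 of the FAD4T females of 2 months, 2345 without replicate 1 of the FAD4T males of 2 months, 2027 without replicate 1 of the WT females of 2 months and 316 without the 5 thymocyte-high libraries. By DESeq2's likelihood ratio test 7 genes passed, among them Myh7 and Tnnc1 of slow muscle and Umod and Slc34a1 of kidney, named after their values were seen. Between ages 0 genes passed (smallest adjusted p 0.119), with 2895 (15.7%) at an unadjusted p under 0.05, and between sexes 0 passed, with 764 (4.13%). Tested alone, males of 2 months gave 0 calls with 2679 genes (14.5%) at an unadjusted p under 0.05, females of 2 months 0 with 3087 (16.7%), males of 8 months 0 with 335 (1.81%), and females of 8 months 4 (0.0216%) with 862 (4.66%). The 4 calls were the same Myh7, Umod, Slc34a1 and Tnnc1, all lower in FAD4T females of 8 months. Umod, the uromodulin of kidney tubules, was 0 CPM in all 3 of these FAD4T libraries and 1.73 to 5.37 CPM in the WT libraries. In males of 8 months the log2 fold changes were -0.43 for Umod, -0.22 for Slc34a1, -1.71 for Myh7 and -0.98 for Tnnc1. Among the groups of 8 months, only the FAD4T females had kidney levels near 0, and the cause was not tested.

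Genes were compared between strata as a description, since the strata share no libraries but genes within a library share its tissue content. Across 18493 genes the log2 fold changes of males and females of 2 months had Pearson r 0.37 and Spearman rho 0.53, and 72.1% of genes had the same sign. For males and females of 8 months these were -0.06, 0.10 and 56.0%. For the 2 male strata they were 0.23, 0.03 and 51.0%, and for the 2 female strata 0.15, 0.00 and 49.3%. Gene length moved with the strata as well: with genes of at least 5 CPM in 5 bins of equal number by length, the median log2 fold change in the shortest and the longest bin was 0.07 and -0.11 in males of 2 months and -0.16 and 0.10 in females of 8 months, while over all strata it was -0.07 and 0.01. The 22 oxidative phosphorylation genes have a median length of 2249 bases against 4279 for all genes with at least 5 CPM, and with length and GC content as offsets, a fit chosen after the data were seen, their median was -0.19 with all 22 lower. The 17 antigen processing genes had 0.23 in that fit.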

How the data were processed

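The deposited files hold integer counts, in read pairs for each gene, made by the authors with featureCounts 1.6.0 in paired mode and with no strand option on the Ensembl 88 annotation of GRCm38, per the file headers, from alignments named for STAR. The submitters' processing notes instead name cutadapt 1.9, HISAT2 2.0.4, StringTie 1.3.4d and GRCm39. The libraries were poly(A), stranded by dUTP and paired-end, per the labels' protocols. Counting without strand leaves overlapping and antisense genes uncertain.

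Of 50686 genes 50376 had a symbol in the reference annotation. The 24 libraries were fitted in R 4.3.3 with edgeR 4.0.16: TMM, genes kept by filterByExpr (groups as strata by genotype, minimum count 10), stratum plus genotype (19 residual degrees of freedom, biological coefficient of variation 0.308), robust glmQLFit, glmQLFTest and Benjamini-Hochberg adjustment at 0.05 over 18493 genes, with a prior count of 0.125. SE is the log2 fold change over the square root of F, and intervals are 95%. CPM are relative to TMM-scaled totals. Strata and interactions were tested with a mean per group (16 degrees of freedom). No 2 libraries of a group held identical counts. Thymocyte-high means a mean log2(CPM + 1) over 10 markers above 2.

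The 24 genes described first were the 12 of smallest p in each direction with at least 5 CPM and the same sign in all 4 strata, leaving out unnamed models, pseudogenes and receptor segments; thyroid genes, genes of Alzheimer models and up to 3 members of each list were added, and some are not reported here. The members, rule and lists were chosen with earlier results of these data known. Lists are described by counts and medians, with no set test.

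Alternatives were DESeq2 1.42.0, limma 3.58.1 voom with quality weights, DESeq2 size factors, no filter, a mean per group, the replicate block, 1 surrogate variable (sva 3.50.0), 3 tissue levels as covariates, leaving out the 5 thymocyte-high libraries, each stratum or each library, and length and GC offsets, added after the data were seen. Promoters are RefSeq sequences of GRCm38.p6, matched by symbol where their start lay within 1000 bases of the annotated one.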

Additional observations from a re-analysis of the deposited data

How the results depend on the processing

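The count of genes passing the main test was 0 under every alternative run except DESeq2, with 237 (199 higher, 38 lower), and the leave-one-library-out fits, with 0 to 1 in all and 0 to 1 higher; the cause of the difference between the tools was not tested. For differences among strata it was 0, and 7 by DESeq2's likelihood ratio test. Genes at an unadjusted p under 0.05 numbered 1849 to 3982 with a library left out. Title numbers are shared between genotypes and were not taken as pairs. Of 12 same-number pairs 7 correlated above 0.1 (-0.41 to 0.46), and 7 FAD4T libraries correlated best with the WT library of their own number. At 8 months the same-number correlations were 0.29, 0.32 and 0.40 in males and 0.46, 0.22 and 0.04 in females. At 2 months they were -0.39, -0.04 and -0.02 in males and 0.16, -0.41 and 0.46 in females. Whether the numbers mark shared handling was not tested. The replicate block gave 0 calls and 2332 genes at an unadjusted p under 0.05. The direction of the 24 genes of the rule is largely fixed by how they were chosen, so it is no sign of stability. Of all 64 named genes, these included, 58 kept their direction in all 38 settings. Most of the others were also picked for a small p, and 24 of the settings leave out a single library. This count is therefore no sign of stability either. With the 5 thymocyte-high libraries left out, the sign turned for App (0.15), Tg (0.20), Tshr (0.0076), Foxe1 (0.22), Dio1 (0.12), Cd8b1 (-0.25), the Tg share (2.12 points) and the mitochondrial share (-0.504 points). With 1 surrogate variable it turned for App (0.13), Tg (0.11), Tshr (0.0717), Foxe1 (0.16) and Dio1 (0.0600), and with 3 tissue levels for App (0.048), Tg (0.0581), Foxe1 (0.21) and Dio1 (0.0138). By voom it turned for Foxe1 (0.049). Without males of 2 months it turned for App (0.0455), Foxe1 (0.0154) and the Tg share (0.277 points), without females of 2 months for Tshr (0.0056) and Foxe1 (0.0146), and with length and GC offsets for App (0.0068). With single libraries left out Tshr ran from -0.24 to 0.016. The cause was not tested for these reversals.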
